A study of Daphnia magna with 24 samples.

Results

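Array features named for ribosomal proteins were followed in whole water fleas (Daphnia magna, a small crustacean common in tests of water quality) after 24 h with dissolved or nanowire silver. Whether each probe lies on the strand that can capture its labelled transcript was not checked. The features described here are the 33 of 14338 on the array whose protein description in the authors' deposited table of exposures against medium contains the words "ribosomal protein" or "acidic ribosomal". Of these, 13 are named for proteins of the large subunit, 16 for proteins of the small subunit and 2 for the acidic stalk proteins (P1 and a P2-like protein). The other 2, "ribosomal protein subunit 3" and "ribosomal protein 11 large subunit", carry names that were kept apart, and 0 were named as mitochondrial. The protein match had an E value of 0.001 or less for 27 members and a higher one for 6 (L18a, L34, S19s, DM06388P3 for S28, DM06643P3 for S24, and "11 large subunit"), and the name of S19s rests on an E value of 6.1. For 0 of the 33 was the matched protein from Daphnia, so every name is carried over from another species.

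Animals were exposed to silver ions (Ag+), to long silver nanowires coated with polyvinylpyrrolidone (L-PVP-NW) or silica (L-SiO2-NW), to short nanowires with either coating (S-PVP-NW and S-SiO2-NW), or kept in medium alone (Control). Each silver exposure was at 1/10 of an LC50, the concentration lethal to a set share of animals, so that the amounts of silver may differ between groups. There are 4 single-colour arrays for each of the 6 groups, of RNA from whole animals, about 20 animals to a sample. The sources used here give no strain, age or sex and do not say whether replicates were separate cultures, so p-values measure only the spread between these arrays.

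A ribosome is built from a small subunit, which binds and reads the mRNA, and a large subunit, which joins the amino acids. Each is a scaffold of ribosomal RNA with a set of proteins, most of them in a single copy, and the P1 and P2 proteins form the flexible stalk of the large subunit, which recruits elongation factors. In animals the genes for these proteins are as a rule transcribed at high levels and in balanced amounts, and their mRNAs make up much of the mRNA of growing cells.

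The members entered through values that the authors had measured on these same arrays. The authors' deposited table gives a log2 ratio against medium only for some exposures of a feature, and 23 members have such an entry for Ag+, 5 for L-PVP-NW, 8 for L-SiO2-NW, 7 for S-PVP-NW and 9 for S-SiO2-NW. In the authors' deposited table all 23 Ag+ entries are below 0, between -3.1 and -0.9, and 14 members have an entry for Ag+ alone. L18 is the 1 member with 4 entries, all for nanowires. Differences from Control are therefore given here as a description, without a test. Comparisons between exposures use arrays that entered the same choice, so they too are descriptions. A feature is called where its adjusted p in the limma fit over all features is under 0.05, and no count of called members is read as a test.

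The probes that the results below turn on are shown as deposited, 5′ to 3′, in lower case. The pair for each of S28 and S24 is shown because both probes of a pair have their best match in the same Daphnia pulex assembly. Capitals mark the run of 8 bases with which DM05881P1 begins and DM06388P3 ends. The S24 pair shares no run longer than 6 bases.
P1 (DM02018P1): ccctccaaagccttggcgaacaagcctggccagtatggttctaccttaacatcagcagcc
P2-like (DM02189P2): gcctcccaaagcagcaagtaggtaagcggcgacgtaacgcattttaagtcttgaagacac
L44 (DM02282P1): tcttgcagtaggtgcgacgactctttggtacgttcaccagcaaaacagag
L10a (DM01583P3): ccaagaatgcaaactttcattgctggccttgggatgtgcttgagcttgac
S25e (DM01989P3): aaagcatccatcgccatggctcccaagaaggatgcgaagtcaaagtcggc
S28 (DM05881P1): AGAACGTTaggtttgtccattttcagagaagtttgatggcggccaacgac
S28 (DM06388P3): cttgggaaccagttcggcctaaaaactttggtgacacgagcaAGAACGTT
S24 (DM02768P1): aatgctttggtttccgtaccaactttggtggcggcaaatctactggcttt
S24 (DM06643P3): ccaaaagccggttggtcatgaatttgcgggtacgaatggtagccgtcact

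Per array, 24.5 to 36.9% of all features stood above the dim limit, set at 2 times the lower quartile of the array's intensities, and arrays of 1 group correlated at 0.918 to 0.977. The 1st percentile of intensity was 41 to 43 on the L-SiO2-NW and S-PVP-NW arrays, 42 to 45.37 in S-SiO2-NW, 45 to 46 in Ag+, 48 to 50 in L-PVP-NW and 46 to 50 in Control, so scan level and exposure cannot be told apart for the silica-coated and S-PVP-NW arrays. Values below are deposited intensities, which are not scaled between arrays. The log2 differences are from a limma fit on normalised values and carry the SE of the contrast. In whole animals, fewer cells of a type and less RNA per cell cannot be told apart.

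With Ag+, nearly all ribosomal protein features were below Control. The median difference over the 33 members was -1.45 on the log2 scale, against 0.01 over all features, with 30 members below 0. It was -1.45 for the large subunit, -1.28 for the small subunit and -2.39 for the stalk pair. In the fit, 29 members (87.9%) were lower at an adjusted p of 0.05 and 0 were higher, beside 7.53% of all features called lower and 10.3% called higher. This contrast chose 23 of the members, and nothing is read from the count. Among the 10 members without an Ag+ entry the median was -0.76, with 7 below 0.

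**Figure D1:**
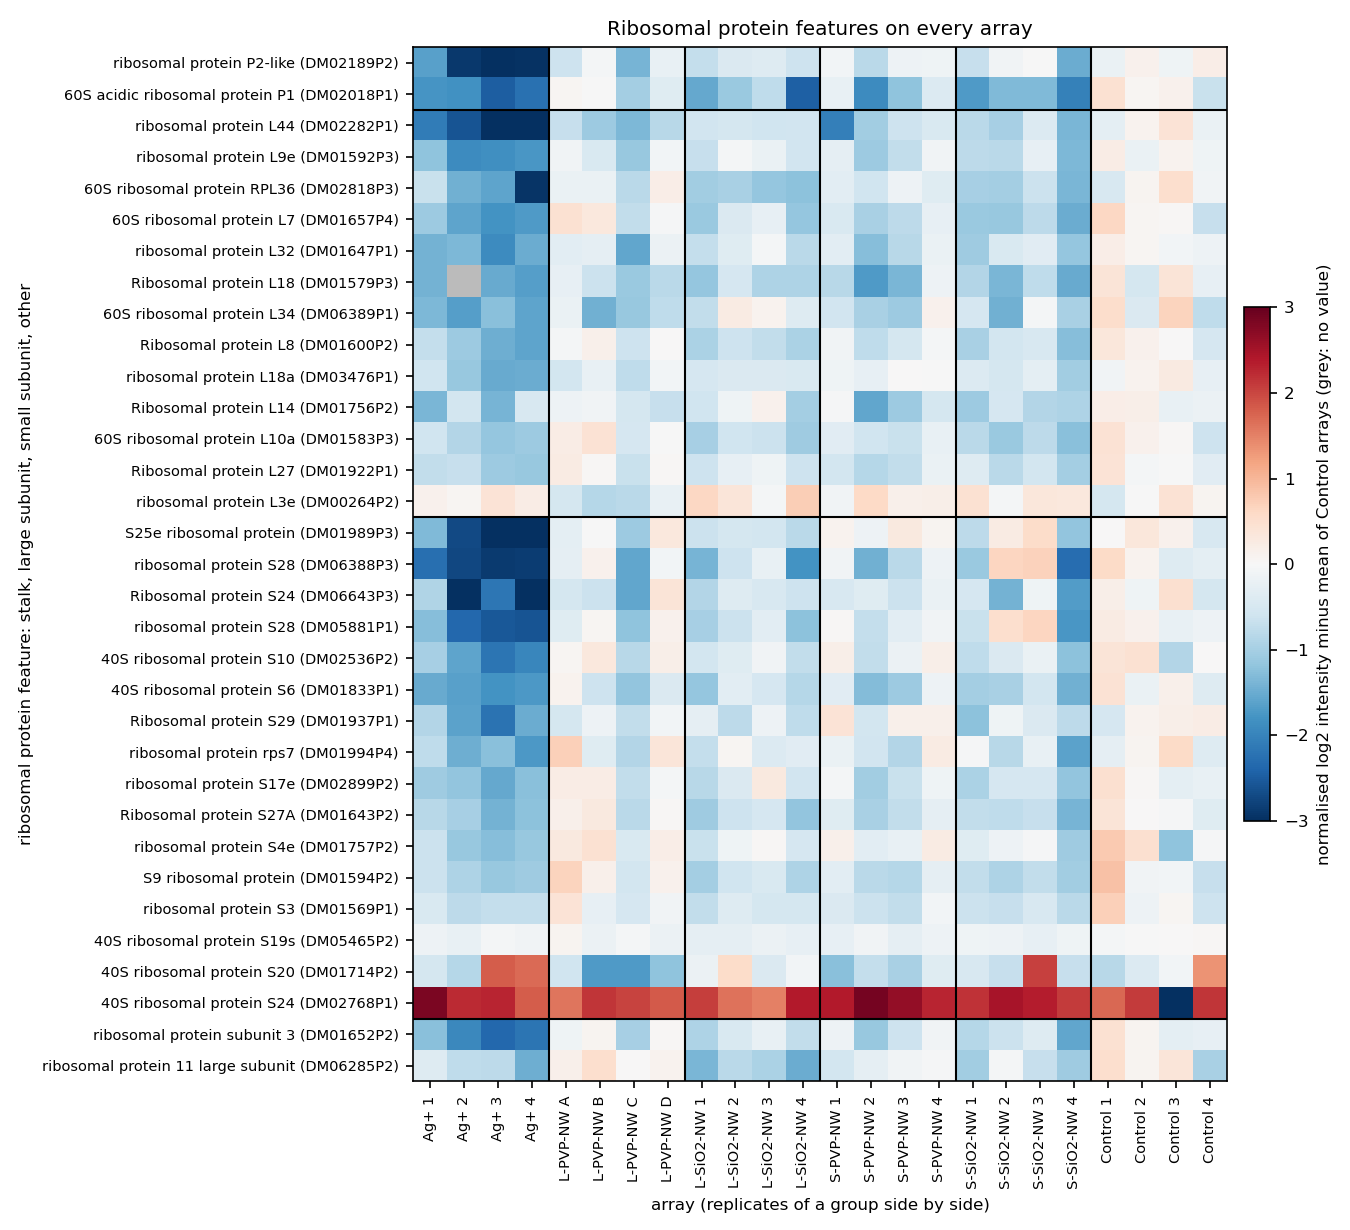
Each row is a ribosomal protein feature and each column an array; colour gives the normalised log2 intensity minus the mean of the 4 Control arrays, with grey for the missing value of L18 on Ag+ 2. The Ag+ columns are blue in nearly all rows other than those of L3e, S20, S19s and S24 (DM02768P1). The last of these is red on every array other than Control 3, because its low value there lowers the Control mean.

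P1, a stalk protein, had intensities of 132, 123, 89 and 112 with Ag+. It had 338, 363, 296 and 273 with L-PVP-NW, 238, 206, 275 and 100 with L-SiO2-NW, 434, 151, 250 and 326 with S-PVP-NW, 153, 260, 223 and 177 with S-SiO2-NW, and 464, 423, 337 and 347 in Control. The Ag+ and Control arrays did not overlap, and neither did those of L-SiO2-NW or S-SiO2-NW and Control. The log2 difference from Control was -2.07 ± 0.37 (SE) with Ag+, -0.34 with L-PVP-NW, -1.46 with L-SiO2-NW, -0.93 with S-PVP-NW and -1.59 with S-SiO2-NW.

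The P2-like feature, for the partner of P1 in the stalk, had 895, 340, 344 and 447 with Ag+. It had 1337, 2022, 1394 and 1549 with L-PVP-NW, 2227, 1842, 2242 and 2146 with L-SiO2-NW, 2686, 1818, 3157 and 2238 with S-PVP-NW, 1573, 3651, 3064 and 1530 with S-SiO2-NW, and 1826, 2600, 1501 and 3477 in Control. All 4 Ag+ arrays lay below all other arrays, and each nanowire group overlapped Control as deposited. On normalised log2 values L-SiO2-NW (10.73 to 11.05) lay below Control (11.25 to 11.65), and the other nanowire groups overlapped it. The log2 difference was -2.71 ± 0.35 with Ag+ and between -0.57 and -0.29 with the nanowires. P1 was thus farther from Control with both silica-coated nanowires than P2-like was, a difference between stalk proteins that was not tested.

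Among large subunit features, L44 had the largest difference with Ag+, -2.95 ± 0.34. Its intensities were 411, 268, 117 and 253 with Ag+, 771, 627, 884 and 660 with L-PVP-NW, 1623, 1100, 1172 and 1459 with L-SiO2-NW, 420, 1065, 1455 and 1167 with S-PVP-NW, 1001, 1311, 1545 and 1087 with S-SiO2-NW, and 1056, 1556, 1415 and 1637 in Control. All Ag+ arrays were below all other arrays, and S-PVP-NW 1, at 420, came nearest to them. L44 was also among the 3 members farthest from Control with L-PVP-NW (-0.99 ± 0.34), whose arrays did not overlap Control, and with S-PVP-NW (-1.05 ± 0.34).

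The other large subunit features below 0 with Ag+ ranged from -1.67 (L9e) to -0.90 (L27). L9e had 332, 193, 282 and 299 with Ag+, against 650, 554, 512 and 802 in Control. L18 had 88, 96 and 83 on the 3 Ag+ arrays with a value, against 242, 160, 228 and 253 in Control. L7, a large subunit protein, had 95, 68, 61 and 66 with Ag+, against 247, 201, 157 and 158 in Control. Both L18 and L7 were below the dim limit on every Ag+ array with a value, which leaves a bound: at least 2.55-fold lower with Ag+ for L18 and at least 2.13-fold lower for L7. These bounds, and those given for other members, are on the normalised scale and not ratios of the deposited intensities.

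Among small subunit features, S25e, which in yeast and human cells is needed for some viral forms of internal initiation, had 638, 215, 176 and 158 with Ag+. It had 886, 1182, 923 and 1292 with L-PVP-NW, 1395, 972, 1053 and 1153 with L-SiO2-NW, 1733, 1660, 2426 and 1420 with S-PVP-NW, 917, 2718, 2569 and 1088 with S-SiO2-NW, and 1160, 1620, 999 and 1210 in Control. Every Ag+ array lay below every other array, and Ag+ 1 stood above the other Ag+ arrays. The log2 difference with Ag+ was -2.71 ± 0.41, while all nanowire groups overlapped Control as deposited. On normalised log2 values L-SiO2-NW (9.85 to 10.13) lay below Control (10.18 to 11), and the other nanowire groups overlapped it.

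S6, the small subunit protein phosphorylated by S6 kinase downstream of TOR signalling, had 87, 80, 80 and 86 with Ag+, against 267, 212, 207 and 245 in Control. It was dim on all Ag+ arrays and at least 2.63-fold lower there. S27A, made as a fusion with ubiquitin, had 118, 103, 85 and 105 with Ag+, against 215, 198, 152 and 203 in Control, a difference of -1.11 ± 0.24. Whether its probe lies in the ubiquitin part, which other ubiquitin genes share, was not checked. The values given for S27A here and below may therefore not be of S27A alone. S3, which lines the entry of the mRNA channel, was dim on 4 of 4 Ag+ and 3 of 4 Control arrays. The size of its difference, -0.67 ± 0.21, can therefore not be read. Control 1 had 146, against 95, 89 and 77 on the other Control arrays.

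Both probes for S28 gave the same picture. DM05881P1 had 256, 114, 121 and 116 with Ag+, 336, 512, 349 and 504 with L-PVP-NW, 468, 384, 500 and 381 with L-SiO2-NW, 675, 507, 671 and 540 with S-PVP-NW, 435, 1367, 1203 and 310 with S-SiO2-NW, and 537, 592, 350 and 663 in Control. DM06388P3 had 96, 70, 66 and 68 with Ag+, 294, 433, 211 and 350 with L-PVP-NW, 282, 316, 426 and 195 with L-SiO2-NW, 496, 234, 360 and 416 with S-PVP-NW, 253, 1226, 1016 and 150 with S-SiO2-NW, and 551, 466, 258 and 484 in Control. On both probes the S-SiO2-NW arrays fell apart into a high pair, replicates 2 and 3, above all Control arrays, and a low pair, replicates 1 and 4. The same pair of arrays was high for S25e and P2-like. The log2 difference with Ag+ was -2.19 ± 0.42 for DM05881P1 and -2.68 ± 0.54 for DM06388P3, which was dim on all Ag+ arrays and at least 4.86-fold lower. The deviations of the 2 probes from their group means correlated at 0.94 over 24 arrays, as a description of neighbouring probes.

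The S24 probes gave different pictures. DM06643P3 had 390, 53, 196 and 92 with Ag+, 328, 339, 295 and 641 with L-PVP-NW, 577, 511, 491 and 637 with L-SiO2-NW, 524, 730, 591 and 555 with S-PVP-NW, 542, 366, 794 and 366 with S-SiO2-NW, and 574, 540, 615 and 569 in Control, a difference of -2.42 ± 0.47 with Ag+. DM02768P1 had 23116, 14649, 15374 and 12061 with Ag+, 10857, 13138, 20414 and 10036 with L-PVP-NW, 22117, 11687, 13383 and 20715 with L-SiO2-NW, 22245, 30770, 33952 and 21619 with S-PVP-NW, 16149, 26177, 21331 and 19392 with S-SiO2-NW, and 12335, 18085, 54 and 18742 in Control. The value of 54 on Control 3 is below the dim limit of that array, 104, and all differences of this feature from Control turn on it. They were 2.29 ± 1.12 with Ag+, 1.90 with L-PVP-NW, 1.90 with L-SiO2-NW, 2.54 with S-PVP-NW and 2.27 with S-SiO2-NW over all arrays. Without Control 3 they were 0.30 with Ag+, -0.09 with L-PVP-NW, -0.09 with L-SiO2-NW, 0.55 with S-PVP-NW and 0.28 with S-SiO2-NW. The deviations of the S24 probes from their group means correlated at -0.15 over 24 arrays. The protein match of the contig was on the plus strand for DM02768P1 and on the minus strand for DM06643P3. The part of this in the different pictures was not tested.

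S20 and L3e were the other members not below Control with Ag+. S20, a small subunit protein, had 1405, 1042, 7344 and 6795 with Ag+, 904, 436, 775 and 570 with L-PVP-NW, 2291, 2649, 1439 and 2235 with L-SiO2-NW, 810, 1430, 1235 and 1312 with S-PVP-NW, 1311, 1756, 8528 and 1894 with S-SiO2-NW, and 763, 1178, 1085 and 5393 in Control. Of the 24 arrays, Ag+ 3, Ag+ 4, S-SiO2-NW 3 and Control 4 stood above the remaining arrays of their groups, and the difference with Ag+ was 0.53 ± 0.64. L3e, whose counterpart in other species reaches to the peptidyl transferase centre, had 282, 260, 490 and 407 with Ag+, 133, 121, 180 and 170 with L-PVP-NW, 602, 319, 245 and 617 with L-SiO2-NW, 252, 525, 356 and 267 with S-PVP-NW, 387, 346, 402 and 554 with S-SiO2-NW, and 143, 226, 233 and 317 in Control. Its difference with Ag+ was 0.21 ± 0.20. S19s, with the smallest difference with Ag+ (-0.14 ± 0.06) and the lowest Control values, 58, 61, 56 and 62, was dim on all 24 arrays.

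**Figure D2:**
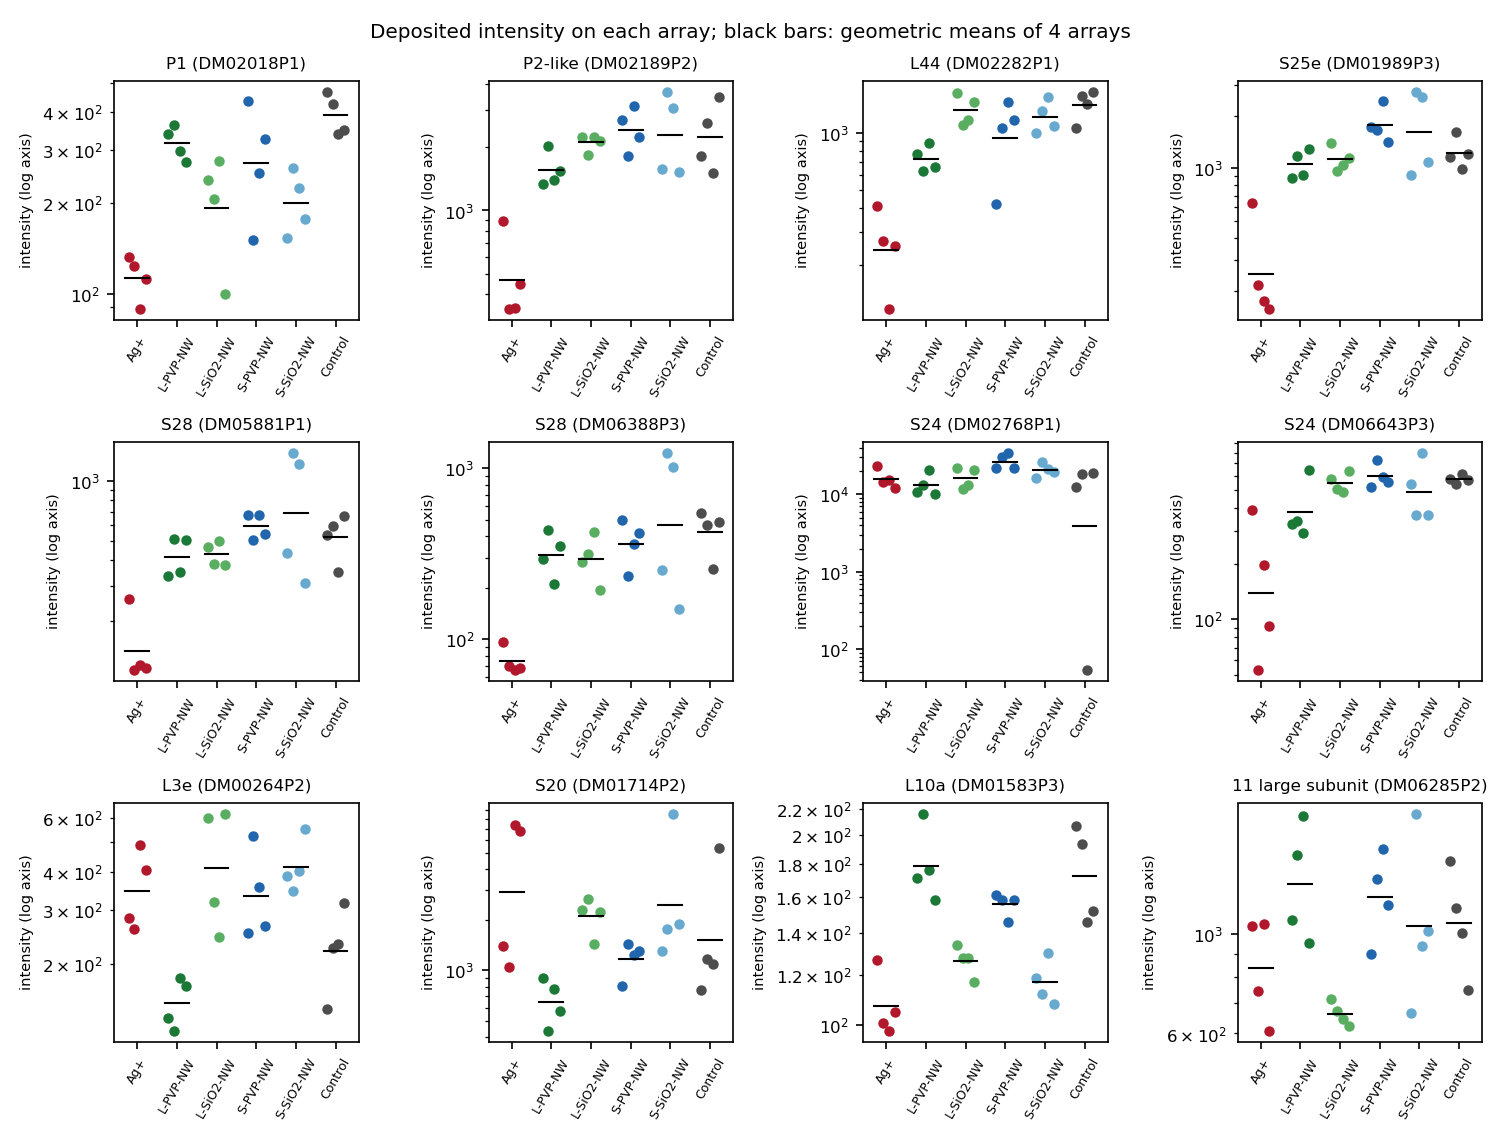
Deposited intensity (log axis) of 12 members on each of 24 arrays, with black bars for the geometric mean of a group. P2-like, L44, S25e and both S28 probes have all Ag+ arrays below all other arrays, S24 (DM02768P1) has a single low Control array, and S20 has 4 high arrays spread over Ag+, S-SiO2-NW and Control.

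With the nanowires the members lay nearer to Control, mostly still below it. The median over the 33 was -0.28 with L-PVP-NW, -0.54 with L-SiO2-NW, -0.47 with S-PVP-NW and -0.75 with S-SiO2-NW, with 27, 31, 29 and 30 members below 0. With L-PVP-NW, 0 members were called lower and 0% of all features were. With L-SiO2-NW, 1 was called lower, beside 0.37%: S19s, at -0.24. With S-PVP-NW 0 were called lower, beside 1.07%. With S-SiO2-NW 7 were called lower, beside 1.92% of all features: P1 (-1.59), L18 (-1.13), L7 (-1.12), S6, L10a (-0.99), S27A (-0.89) and L8 (-0.82). L8 belongs to the proteins around the peptidyl transferase centre. Of these 7, all but L8 have an authors' entry for S-SiO2-NW, and S19s has one for L-SiO2-NW, so that these contrasts had chosen them and nothing is read from the counts. The S-SiO2-NW count was 0 without S-SiO2-NW 4 or without Control 1, and 11 without Control 4. It was also 0 with the array floor as a covariate or with only the arrays compared, and 21 with a common 75th percentile over bright features.

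All of these medians, that with Ag+ included, depended on how arrays were scaled to each other, least so that with L-PVP-NW. With each array centred on its median the values were -1.06 with Ag+, -0.24 with L-PVP-NW, -0.18 with L-SiO2-NW, -0.16 with S-PVP-NW and -0.24 with S-SiO2-NW. With arrays set to a common 75th percentile the median of all features itself moved by -0.30 with L-SiO2-NW, -0.18 with S-PVP-NW and -0.40 with S-SiO2-NW, and by -0.25 with Ag+. Relative to that shift the members were at -1.09 with Ag+, -0.24 with L-PVP-NW, -0.17 with L-SiO2-NW, -0.17 with S-PVP-NW and -0.24 with S-SiO2-NW. No scaling turned the sign of any of these 5 medians.

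**Figure D3:**
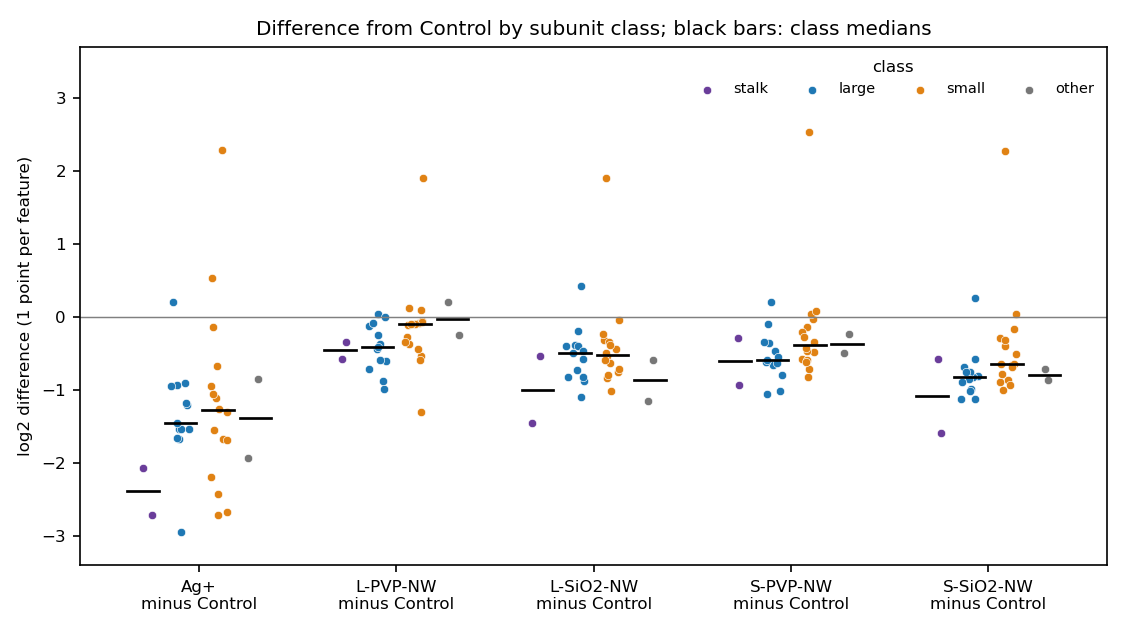
Log2 difference of each member from Control (vertical axis) for the 5 exposures, by subunit class, with black bars for class medians. With Ag+ the stalk, large and small subunit medians are -2.39, -1.45 and -1.28, and the single high orange point in each exposure is S24 (DM02768P1), which turns on Control 3.

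The members farthest from Control with each nanowire follow, with the nearest. With L-PVP-NW, S24 (DM02768P1), S20 (-1.30 ± 0.64) and L44 were farthest from Control, and L7 was at 0.00 ± 0.29. With L-SiO2-NW, the farthest were S24 (DM02768P1), P1 and "11 large subunit" (-1.15 ± 0.29), which had 716, 673, 645 and 624 with L-SiO2-NW, against 1454, 1140, 1005 and 749 in Control, while S20 was nearest at -0.04 ± 0.64. With S-PVP-NW, L18 followed S24 (DM02768P1) and L44 at -1.01 ± 0.28, with 145, 82, 108 and 209 against the Control values given above, which it overlapped. S4e was at -0.03 ± 0.33 with S-PVP-NW, and at -0.44 without Control 3, where it had 95 against 352, 346 and 329 on the other Control arrays. With S-SiO2-NW, S24 (DM02768P1), P1 and L18 were farthest, and S20 was nearest at 0.04 ± 0.64. L18 had 146, 121, 171 and 120 with S-SiO2-NW, all but the highest of them below every Control array as deposited. On normalised log2 values all of them were below Control (6.64 to 7.37 against 7.62 to 8.54).

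Set directly against Ag+, most members lay higher with each nanowire. The median difference was 1.13 for L-PVP-NW minus Ag+, 0.73 for L-SiO2-NW, 0.92 for S-PVP-NW and 0.61 for S-SiO2-NW, and it was positive under every scaling tried. At the adjusted p of 0.05, 25 members were called higher with L-PVP-NW (7.01% of all features were), 13 with L-SiO2-NW (3.1%), 16 with S-PVP-NW (5.85%) and 5 with S-SiO2-NW (1.39%). Those 5 were L44, S25e, both S28 probes and P2-like. L3e was called lower with L-PVP-NW than with Ag+, at -0.81 ± 0.20, beside 8.57% of all features. With the array floor as a covariate the members called were 0 for L-PVP-NW minus Ag+ and 5 for L-SiO2-NW minus Ag+. For S-SiO2-NW minus Ag+ they were 0 with only the 8 arrays compared, both with and without the replicate number as a block. The Ag+ arrays had entered the choice of 23 members, so these counts describe the members and do not test them.

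Besides the members already set against Ag+, the following were called, described by their deposited intensities, with no overlap of normalised values in the comparison given. For the large subunit, L9e had 705, 680, 654 and 727 with L-SiO2-NW, against 332, 193, 282 and 299 with Ag+ (1.29 ± 0.26). L8 had 175, 220, 201 and 195 with L-PVP-NW, against 146, 108, 98 and 87 with Ag+ (1.09 ± 0.23). L18a had 302, 341, 396 and 285 with S-PVP-NW, against 199, 131, 124 and 127 with Ag+ (1.09 ± 0.19). In these 3, the highest Ag+ array was Ag+ 1. L32 had 459, 370, 479 and 403 with L-SiO2-NW, against 181, 187, 165 and 226 with Ag+ (1.04 ± 0.28). RPL36 had 521, 550, 749 and 437 with S-PVP-NW, against 414, 217, 274 and 82 with Ag+ (1.31 ± 0.32). For RPL36, Ag+ 4 stood far below the other Ag+ arrays. L7 had 214, 218, 160 and 168 with L-PVP-NW, against 95, 68, 61 and 66 with Ag+, where it was dim on every array (at least 2.13-fold higher with L-PVP-NW).

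Among small subunit features, S10 had 941, 680, 889 and 798 with L-SiO2-NW, against 499, 301, 269 and 317 with Ag+ (1.24 ± 0.33). S17e had 271, 293, 249 and 241 with L-PVP-NW, against 151, 135, 132 and 165 with Ag+ (1.17 ± 0.27). S29 had 2116, 1269, 2194 and 1469 with S-PVP-NW, against 863, 474, 446 and 713 with Ag+ (1.59 ± 0.28). None of the 3 overlapped as deposited either. S27A had 179, 217, 153 and 178 with L-PVP-NW, against 118, 103, 85 and 105 with Ag+ (1.03 ± 0.24). "Subunit 3" had 334, 429, 338 and 388 with L-PVP-NW, against 215, 127, 114 and 131 with Ag+ (1.68 ± 0.30). Ag+ 1 was again the highest Ag+ array for S10, S29, S27A and "subunit 3", though not for S17e.

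Lacking an authors' entry was decided on the same arrays as having one, so the members without an Ag+ entry are no independent set. Over the 23 members with an Ag+ entry the median of L-PVP-NW minus Ag+ was 1.25, and over the 10 without it was 0.57. L10a, a large subunit protein without an Ag+ entry, had 171, 216, 176 and 158 with L-PVP-NW, against 127, 101, 98 and 105 with Ag+, with no overlap (0.96 ± 0.21). L27 had 159, 154, 135 and 149 with L-PVP-NW, against 101, 105, 90 and 87 with Ag+, where it was dim on all arrays (0.82 ± 0.20). "11 large subunit" had 1074, 1494, 1826 and 954 with L-PVP-NW, against 1038, 746, 1050 and 608 with Ag+, which overlap as deposited (1.04 ± 0.29). These were the 3 members without an Ag+ entry that were called higher with L-PVP-NW. None was called with the array floor as a covariate, and "11 large subunit" was also not called with median centring or without Ag+ 4 or L-PVP-NW B.

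Between nanowires of different coating or length the median differences were smaller than those from Ag+. The median over all 33 was -0.30 for L-SiO2-NW minus L-PVP-NW and 0.16 for L-PVP-NW minus S-PVP-NW, but 0.06 and -0.16 once arrays were centred on their medians. For S-SiO2-NW minus S-PVP-NW it was -0.29 and for L-SiO2-NW minus S-SiO2-NW 0.15, with -0.13 and 0.02 after median centring. At an unadjusted p under 0.05 in limma there were 10 members (30.3%) for L-SiO2-NW minus L-PVP-NW, beside 20.5% of all features. There were 3 (9.09%) for S-SiO2-NW minus S-PVP-NW, beside 13.6%, and 6 (18.2%) for L-PVP-NW minus S-PVP-NW, beside 16%. For L-SiO2-NW minus S-SiO2-NW there were 0, beside 5.75%.

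After adjustment over all features, 3 members were called for L-SiO2-NW minus L-PVP-NW (4.78% of all features were, 2.69% higher and 2.1% lower) and 1 for L-PVP-NW minus S-PVP-NW (2.15% of all features were, 0.788% lower). None was called for S-SiO2-NW minus S-PVP-NW (0.9%) or for L-SiO2-NW minus S-SiO2-NW (0.0349%). The members called, L3e, L10a and "11 large subunit", each had an authors' entry in 1 of the arms. L3e, with its only entry for L-PVP-NW, was higher by 1.03 ± 0.20 with L-SiO2-NW than with L-PVP-NW, and its difference was -0.81 ± 0.20 for L-PVP-NW minus S-PVP-NW. Its 4 L-PVP-NW arrays (121 to 180) lay below all arrays of the other nanowires and of Ag+. L10a, with entries for both silica-coated nanowires, had 134, 128, 128 and 117 with L-SiO2-NW, against 171, 216, 176 and 158 with L-PVP-NW (-0.86 ± 0.21). "11 large subunit" had 716, 673, 645 and 624 with L-SiO2-NW, against 1074, 1494, 1826 and 954 with L-PVP-NW (-1.35 ± 0.29). For the coating by length interaction 0 members were called by limma (0.0209% of all features were), and 3 (9.09%) had an unadjusted p under 0.05, beside 7.71% of all features. The call of L3e between L-PVP-NW and S-PVP-NW was lost when any 1 of 6 of the 8 arrays was left out.

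Most members went up and down together from array to array. After the group means were taken out, pairs of members correlated at 0.40 on average over 24 arrays, with 431 of 528 pairs above 0, against 0.01 among the 2206 features above the dim limit on every array. With a common 75th percentile over all features the averages were 0.42 for the members and 0.05 for the bright features, and with median centring they were 0.23 and 0.24. The arrays share depth and scan level within a column, and the correlations are given as a description. In all 6 groups the array with the most features above the dim limit also had the lowest median of the members. These were Ag+ 3, L-PVP-NW C, L-SiO2-NW 1, S-PVP-NW 2, S-SiO2-NW 4 and Control 4. With median centring it held in 4 of 6 groups. The Ag+ arrays had 28.3 to 33.1% of features above the limit, against 24.5, 25.6 and 26.6% on Control 3, 1 and 2, which lie below every Ag+ array, and 31.6% on Control 4. The part of this in the group differences was not tested.

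**Figure D4:**
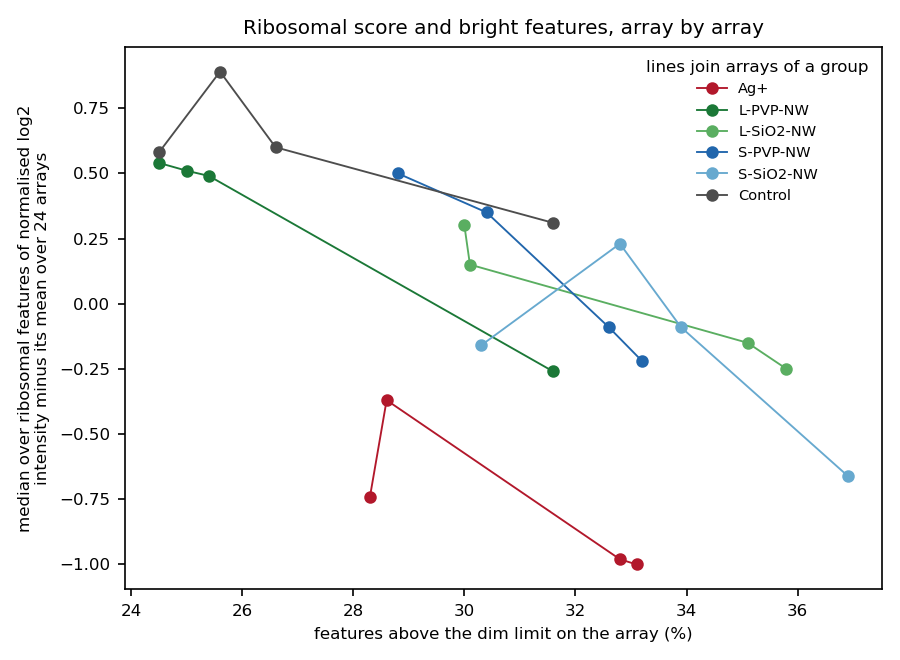
Each point is an array: the share of features above the dim limit (horizontal, %) and the median over members of normalised log2 intensity minus its mean over 24 arrays (vertical). The brightest array of every group is its lowest; the Ag+ points all lie at or below -0.37 and the Control points at or above 0.31, and lines join arrays of a group.

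A property that the rule did not use was the strand of the protein match. The authors' table gives the reading frame in which each contig matched its protein, and it was on the minus strand for 26 of 33 members (78.8%), against 369 of 1024 described features in that table (36.0%). This frame is that of the contig. Whether each probe runs on the same strand as its contig was not checked, so the groups below are not groups by probe strand. All 26 minus-frame members were below Control with Ag+, while the 7 plus-frame members were 4 below (P1, L34, RPL36 and S25e) and 3 above (L3e, S20 and S24 DM02768P1). The median with Ag+ was nearly the same for both, -1.41 for the minus-frame and -1.45 for the plus-frame members. With the nanowires the minus-frame medians were -0.19 with L-PVP-NW, -0.56 with L-SiO2-NW, -0.47 with S-PVP-NW and -0.77 with S-SiO2-NW, and the plus-frame medians -0.34, -0.19, -0.35 and -0.29 in the same order. The S24 pair had 1 member with each kind of contig frame. Average pairwise correlation of deviations was 0.52 within the minus-frame members and 0.05 within the plus-frame members.

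Other described features in the table were set beside them, limited to those with an E value of 0.001 or less. Of 158 such features with a minus frame, 135 were below Control with Ag+ (median -0.60), and of 308 with a plus frame 145 were (median 0.11). With the nanowires the medians of these minus-frame features were -0.19 with L-PVP-NW, -0.34 with L-SiO2-NW, -0.30 with S-PVP-NW and -0.41 with S-SiO2-NW. Those of the plus-frame features were -0.07, -0.04, 0.00 and 0.08 in the same order. These features too were selected by the authors on the same contrasts. As background, the labelling kit named in the labels copies mRNA into labelled strands complementary to it, so that the strand a probe carries bears on what it can capture. The sources used here do not say which strand each deposited probe has relative to its transcript. Counting stop-free frames does not settle it: such a frame was found on the strand of the match in 33 of 33 member probes and on the other strand in 31. That count takes each probe to run as its contig does. The probes were not translated and set against ribosomal protein sequences here, which could show the strand of a probe. The part of the strand in the members' differences was not tested. Probe base composition was ordinary, at 44 to 55% G and C with a median of 50%, equal to the table's median.

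**Figure D5:**
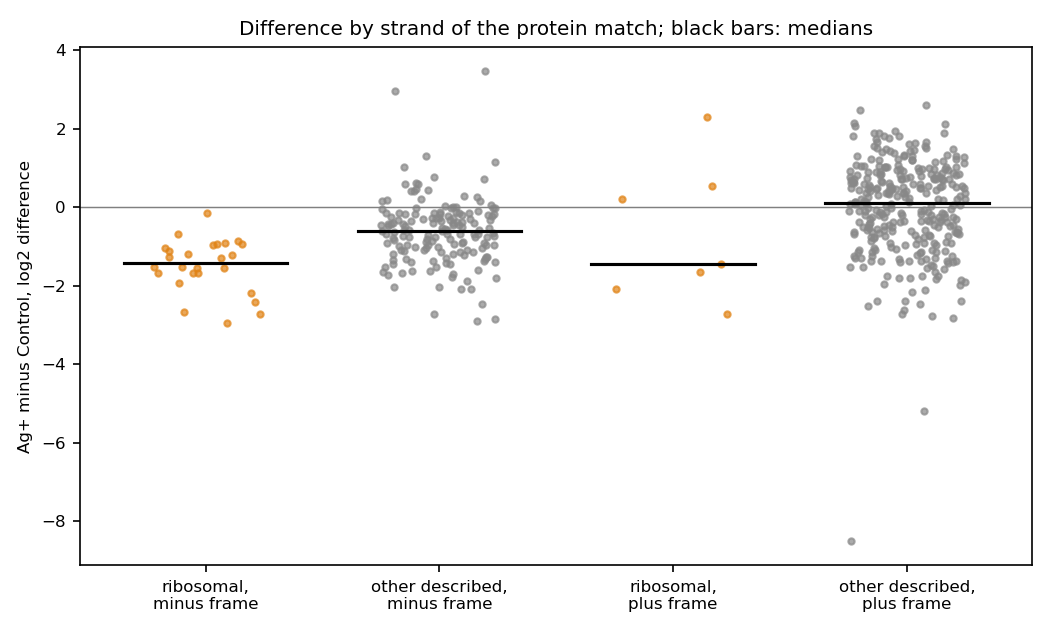
Log2 difference of Ag+ minus Control (vertical axis) for ribosomal features and for other described features with an E value of 0.001 or less, by strand of the protein match, with black bars for medians. All 26 minus-frame ribosomal features are below 0, as are 135 of 158 other minus-frame features and 145 of 308 other plus-frame features.

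Other parts of the translation machinery were sparsely covered by the table, whose features the authors had selected on these contrasts: with Ag+, 28.8% of its features were called lower and 16.3% higher, against 7.53% and 10.3% of all features. Of 5 features found by words for translation factors, 3 were called lower and 1 higher with Ag+, and 0 with any nanowire. The translationally controlled tumour protein is among them through the word "translationally" and is not named as a translation factor. The match of eIF4G (DM05318P2), which was not called, has an E value of 6. The translationally controlled tumour protein (DM01720P1) was at -2.81 ± 0.44 over 3 Ag+ arrays with a value, and eIF-5A (DM01641P2), which helps ribosomes through stalling sequences, at -1.65 ± 0.23. Elongation factor 1-alpha (DM01547P3), which delivers tRNAs to the ribosome, was at -0.95 ± 0.28, and the helicase eIF4A2 (DM01590P4) at 0.95 ± 0.30. Of 4 features named for aminoacyl-tRNA synthetases, which charge tRNAs, 2 have a match with an E value of 0.001 or less. Of these, the aspartyl enzyme (DM01109P1) was called lower with Ag+ (-0.53 ± 0.12) and with S-SiO2-NW (-0.50 ± 0.12), and the arginyl enzyme in no exposure. The other 2, lysyl and cysteinyl by name, have E values of 4.6 and 1.6. The first was called lower with Ag+, S-PVP-NW and S-SiO2-NW, and the second higher with Ag+, L-SiO2-NW and S-SiO2-NW. Of 5 ubiquitin features 2 were called higher with Ag+: ubiquitin-conjugating enzyme h isoform 1 (DM00219P2, 0.86 ± 0.21), called higher also with L-SiO2-NW and S-SiO2-NW, and isoform 2, whose match has an E value of 4.3. The 1 ribosome biogenesis feature, UTP14 (DM00894P1), was at -0.26 with Ag+ and was called lower with S-PVP-NW (-0.44 ± 0.10). There were 0 poly(A) binding features.

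Word lists for tissues were set beside the members because whole animals were used. The 14 features with myosin, actin, troponin, paramyosin or muscle protein in their description include paramyosins, troponin I and muscle myosin, but also beta actin, nonmuscle or smooth muscle myosins, actin-depolymerizing factor and weak matches, 3 with an E value over 0.001, so they do not mark muscle alone. They had medians of -1.37 with Ag+, -0.28 with L-PVP-NW, -0.54 with L-SiO2-NW, -0.49 with S-PVP-NW and -0.75 with S-SiO2-NW, beside the ribosomal medians of -1.45, -0.28, -0.54, -0.47 and -0.75 in the same order, and 9 of the 14 had plus frames. Their summed intensity was 2764 to 3760 with Ag+, against 3893 to 5780 in Control. The 11 yolk protein features had medians of -2.17 with Ag+, -1.48 with L-PVP-NW, 0.55 with L-SiO2-NW, -1.68 with S-PVP-NW and -0.08 with S-SiO2-NW, and a summed intensity of 13700 to 22040 with Ag+, against 33450 to 99090 in Control. For 26 features with trypsin, chymotrypsin, carboxypeptidase or amylase in their description, the median with Ag+ was 0.09. Medians with Ag+ were -0.66 for 34 cuticle features, 0.55 for 5 eye features and -0.60 for 6 hemoglobin features. These 4 lists too hold matches with an E value over 0.001, and the first holds an angiotensin-converting enzyme, so it does not mark gut alone. The part of tissue make-up in the ribosomal differences was not tested.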

How the data were processed

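Per the labels, total RNA (300 ng) of whole animals was extracted with Trizol and labelled with Cy3 in the Agilent Quick-Amp one-colour protocol. The deposited intensities are whole numbers up to 65535 that are not scaled between arrays, and no source used here states the scanner or its settings. The authors' deposited table holds log2 ratios of exposure over medium, per the file headers. The 4 arrays of an exposure and the 4 of Control can form 16 array pairs, which are not separate replicates. The other values taken from it are E values, per the file headers of a protein search, and were used to describe the matches. All 24 arrays (6 groups of 4) were used.

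The members, word lists and comparisons were chosen with earlier results of these data known. Members were found by word match in the protein descriptions (1024 of 1826 table features have one). The 310 exact zeros, all on Ag+ 2, were treated as missing, 1 of them a member value. Intensities were corrected with normexp (offset 50), log2-transformed and then quantile-normalised with limma 3.58.1 in R 4.3.3. One mean per group was fitted over all arrays, followed by contrasts, eBayes (prior df 1.59). Moderated tests were two-sided, with a threshold of 0.05 after Benjamini-Hochberg adjustment across all 14338 features. The offset pulls differences of dim features toward 0. Where every array of 1 side was below the dim limit, the fold is a bound against that limit or the measured value, whichever is higher. Steps were tested on simulated data. The number of arrays limits the precision.

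Values are given for each stalk member, for up to 4 members per class past the threshold without overlap in comparisons between exposures, for the 3 farthest from and the nearest to Control in each exposure, for the members of extreme Control level and for those against the Ag+ median; S3, S6, S28 (DM06388P3), L27, and L10a for L-PVP-NW minus Ag+ were added after their values were seen. Alternatives were other scalings, no background correction, a smaller offset, filters, array weights, trended eBayes, fits of only the arrays compared, the array floor as a covariate, a replicate block and leaving out each array. Same-numbered arrays of different groups deviated with correlations of -0.439 to 0.429 (median -0.076, 13 of 40 over 0.1), and all 4 pairs were over 0.1 for Ag+ with Control (0.132 to 0.41) and for Ag+ with S-SiO2-NW (0.264 to 0.429), but not for any other comparison. For these, a block within the 8 arrays compared was added after the data were seen.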

Additional observations from a re-analysis of the deposited data

Results flagged for a closer look

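In 5 of 197 member-by-group sets of 4 arrays, 1 array stood far from the other 3 on the normalised log2 scale. Its gap there, as a share of the set's range, passed Dixon's limit for 4 values, which chance does in about 1 of 20 sets, or 9.8 here. The intensities that follow are as deposited, and their own gaps are not the ones flagged. The flags fall on 5 different arrays. S24 (DM02768P1) had 54 on Control 3, against 12335 to 18742 on the other Control arrays, and its difference from Control with Ag+ was 2.29 with and 0.30 without that array. S20 (DM01714P2) had 8528 on S-SiO2-NW 3, against 1311 to 1894 on the other arrays of that group. L32 (DM01647P1) had 208 on L-PVP-NW C, against 280 to 325. S27A (DM01643P2) had 108 on S-SiO2-NW 4, against 140 to 173. The P2-like feature (DM02189P2) had 1818 on S-PVP-NW 2, against 2238 to 3157. L-PVP-NW C, S-PVP-NW 2 and S-SiO2-NW 4 are also the arrays of their groups with the most features above the dim limit.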

How the results depend on the processing

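Over the recomputed values, 549 stayed within the spread between arrays or within 1.5 times the count, 73 moved further and 4 turned sign. The median with Ag+ against Control was -1.73 with a normexp offset of 16 and -1.06 with median centring. Median centring also gave -0.18 for L-SiO2-NW, -0.16 for S-PVP-NW and -0.24 for S-SiO2-NW against Control, 13 members called for S-SiO2-NW minus Ag+ and 2 for L-PVP-NW minus S-PVP-NW, and turned the medians of L-SiO2-NW minus L-PVP-NW to 0.06 and of L-PVP-NW minus S-PVP-NW to -0.16. With the array floor as a covariate those medians turned to 0.24 and -0.23, the medians against Control were -0.22 for L-SiO2-NW and -0.08 for S-PVP-NW, and the members called were 0 for L-PVP-NW minus Ag+, 5 for L-SiO2-NW minus Ag+, 0 for L-SiO2-NW and 0 for S-SiO2-NW against Control, and 0 for L-SiO2-NW minus L-PVP-NW and for L-PVP-NW minus S-PVP-NW. The floor differs between these groups, and the cause was not tested for any of these shifts. L-PVP-NW minus S-PVP-NW had 0 members called, in place of 1, also with a common 75th percentile over bright features, with trend and robust, and with only the arrays compared. L-SiO2-NW against Control had 0 in place of 1 with either common 75th percentile, with the filter on dim features, with only the arrays compared, and with members of E 0.001 or less, and 4 with array weights. S-SiO2-NW against Control had 13 and 21 in place of 7 with a common 75th percentile over all and over bright features, 1 with array weights and 0 with only the arrays compared. S-SiO2-NW minus Ag+ had 8 in place of 5 with array weights and 0 with only the arrays compared, and L-SiO2-NW minus L-PVP-NW had 7 and 1 in place of 3. The replicate block over the 20 numbered arrays gave 4 members called for S-SiO2-NW against Control in place of 7 and changed no other count or median by that much, though numbers pair no arrays there (6 of 20 correlate best with their own number). Where they do, a block within the 8 arrays compared, chosen after seeing the data, gave 23 members called and a median of -1.45 for Ag+ against Control, and 0 in place of 5 for S-SiO2-NW minus Ag+. It could not be fitted for L-PVP-NW, whose replicates carry letters.

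With single arrays left out, members called ran from 24 to 29 for Ag+ against Control, 0 to 7 for L-SiO2-NW against Control (7 without Control 4), 0 to 1 for S-PVP-NW against Control, and 0 to 11 for S-SiO2-NW against Control. They ran from 22 to 27 for L-PVP-NW minus Ag+, 5 to 13 for L-SiO2-NW minus Ag+ (5 without Ag+ 4 or L-SiO2-NW 3), 11 to 18 for S-PVP-NW minus Ag+, and 3 to 11 for S-SiO2-NW minus Ag+ (11 without Ag+ 1). They ran from 1 to 7 for L-SiO2-NW minus L-PVP-NW (7 without L-PVP-NW C) and 0 to 1 for L-PVP-NW minus S-PVP-NW. Leaving out members with other names or, outside the case above, those with E over 0.001 moved no count or median that far. Dim intensities limit S3, S9, S19s and L34, which were below the dim limit on at least 2 of 4 Control arrays.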
